A study of Mus musculus with 38 samples.

Results

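Footprints of 8 marker genes of microglia, C1qa, C1qb, C1qc, Csf1r, Cx3cr1, Tyrobp, Ctss and Spp1, were followed through all 38 PL-Ribo-seq libraries of cultured mouse cortical neurons. These are 8 of the 22443 genes to which the deposited count files could be mapped. They were picked because microglia markers stood higher in the input libraries of cultures with a knockdown of the initiation factor eIF4G2. Their levels in those inputs against other libraries are therefore described here without a test. Responses to KCl were tested. In short, 7 of the 8 genes held 2 to 57 counts in each knockdown input and 0 to 30 counts in each of the 30 libraries without knockdown, where the median count was 2.5 for Csf1r and 0 or 1 for each of the other 6. Spp1 had at least 2 counts in every library and was highest in the knockdown libraries.

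PL-Ribo-seq joins ribosome profiling to proximity labelling. Ribosome-protected mRNA fragments (footprints) are sequenced from a culture as a whole (input) or from ribosome complexes that a biotin ligase, TurboID, has labelled and streptavidin has captured (pulldown). All cultures were primary cortical neurons transduced with a doxycycline-inducible lentivirus, and all received cycloheximide, a blocker of elongation, for 2 min and, by the labels, biotin for 30 min, although the methods give a shorter biotin time after DHPG. The virus carried TurboID-PSD95, which PSD95 elements direct to dendrites, or Pan-TurboID, which lacks such a signal.

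The 14 groups belong to 3 sets of cultures. The KCl experiment had 8 groups of 3 libraries, namely inputs and pulldowns of both baits from resting neurons and from neurons depolarized with 55 mM KCl for 1 h after silencing with tetrodotoxin and DL-AP5. The DHPG set had 3 inputs and 3 pulldowns of TurboID-PSD95 neurons given 100 µM DHPG for 10 min after the same silencing, a compound that activates the group I class of metabotropic receptors. The knockdown set had 4 groups of 2 libraries, inputs and pulldowns of resting and of KCl-depolarized TurboID-PSD95 neurons, after 20 nM siRNA against eIF4G2 for 72 h. Libraries of a non-targeting siRNA were not analysed here. The knockdown libraries and the DHPG libraries were therefore set against the KCl experiment, and the treatment and the set of cultures cannot be told apart in those comparisons. "Untreated" below means without knockdown and without DHPG.

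Microglia are the resident macrophages of the brain. They enter it early in development from outside the neural lineage, depend on signalling through the receptor encoded by Csf1r, and patrol the tissue, remove debris and prune synapses. C1qa, C1qb and C1qc encode the chains of C1q, the recognition molecule of the classical complement pathway, which is made in the brain mainly by microglia. Cx3cr1 encodes the receptor for the neuronal chemokine fractalkine, Tyrobp an adaptor that carries the signal of TREM2 and related receptors, and Ctss the lysosomal protease cathepsin S. Spp1 encodes osteopontin, a secreted phosphoprotein that activated microglia make, but which other cells make as well.

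The transcription factor PU.1, encoded by Spi1, is needed for the macrophage lineage, and its binding motif has the core GAGGAAGT. Promoters in RefSeq (GRCm38.p6, 250 bases before to 50 bases after the start site) were searched for that core on both strands. Windows of 30 bases around the 3 matches are shown in the direction of the gene, with the motif or its reverse complement in capitals.
C1qc (chr4:136893091-136893120, minus strand): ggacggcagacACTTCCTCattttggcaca
Ctss (chr3:95526773-95526802, plus strand): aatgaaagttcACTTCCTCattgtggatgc
Spp1 (chr5:104434987-104435016, plus strand): caaaaccagagGAGGAAGTgtaggagcagg
The match began 195 bases before the start site in C1qc, 2 bases before it in Ctss and 113 bases before it in Spp1, where it was present for 1 of the gene's start sites and not for the other. No match was found for C1qb and Cx3cr1. Thus 3 of the 5 member genes searched held the core, against 3.69% of 27025 genes. A match describes letters in a window and not a bound site. Promoters of C1qa, Csf1r and Tyrobp were not searched.

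Depth ranged from 2.05 to 14.6 (median 5.01) times 1000000 counts in coding sequence (CDS) per library, and levels are given as counts per 1000000 CDS counts (CPM). A count of 0 in a library allows a level of up to 0.205 to 1.47 CPM (3 counts), depending on its depth, which covers counting error only. All 14 neuronal markers were detected in the inputs and in the pulldowns of each set of cultures, and they summed to between 6282 and 12523 CPM per library. Markers of other cells were present too. In the 12 untreated inputs astrocyte markers summed to 691 to 1429 CPM, oligodendrocyte lineage genes to 183 to 660 CPM and mural and fibroblast genes to 152 to 730 CPM. Eif4g2, the siRNA's target, was at 284 to 338 CPM in the 4 knockdown inputs and at 456 to 811 CPM in the 12 untreated inputs, without overlap. Between the knockdown and the 6 untreated TurboID-PSD95 inputs, 5.76% of all genes were lower without overlap. The 3 DHPG inputs, which had no siRNA, were at 445 to 457 CPM. The siRNA and the set of cultures cannot be told apart here. These are bulk libraries, in which fewer cells of a type and less RNA per cell cannot be told apart.

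Summed over the 8 genes, the level was highest in the 4 knockdown groups. The sum was 116 ± 2.55 CPM (SD, n = 2) in resting and 114 ± 7.81 CPM (n = 2) in depolarized knockdown inputs. In TurboID-PSD95 inputs without knockdown it was 8.0 ± 5.56 CPM at rest and 22.5 ± 2.32 CPM after KCl (n = 3 each). Pan-TurboID inputs were at 9.28 ± 4.51 CPM at rest and at 11.9 ± 3.42 CPM after KCl (n = 3 each). DHPG pulldowns stood lowest of all 14 groups, at 1.48 ± 0.122 CPM (n = 3). In the order of group means, resting and depolarized knockdown inputs and resting knockdown pulldowns overlapped each other, and depolarized knockdown pulldowns lay between these and depolarized TurboID-PSD95 inputs without overlap on either side.

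The sum of the 7 genes other than Spp1 was taken separately. It lay between 0 and 4.84 CPM in each of the 30 libraries without knockdown. Knockdown inputs had 20.6 and 23.5 CPM at rest and 23.1 and 31.0 CPM after KCl. Knockdown pulldowns had 19.2 and 12 CPM at rest and 12.2 and 14.6 CPM after KCl. Every one of the 8 knockdown libraries thus stood above every library without knockdown, while the 10 groups without knockdown overlapped each of their neighbours in the order of means.

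**Figure D1:**
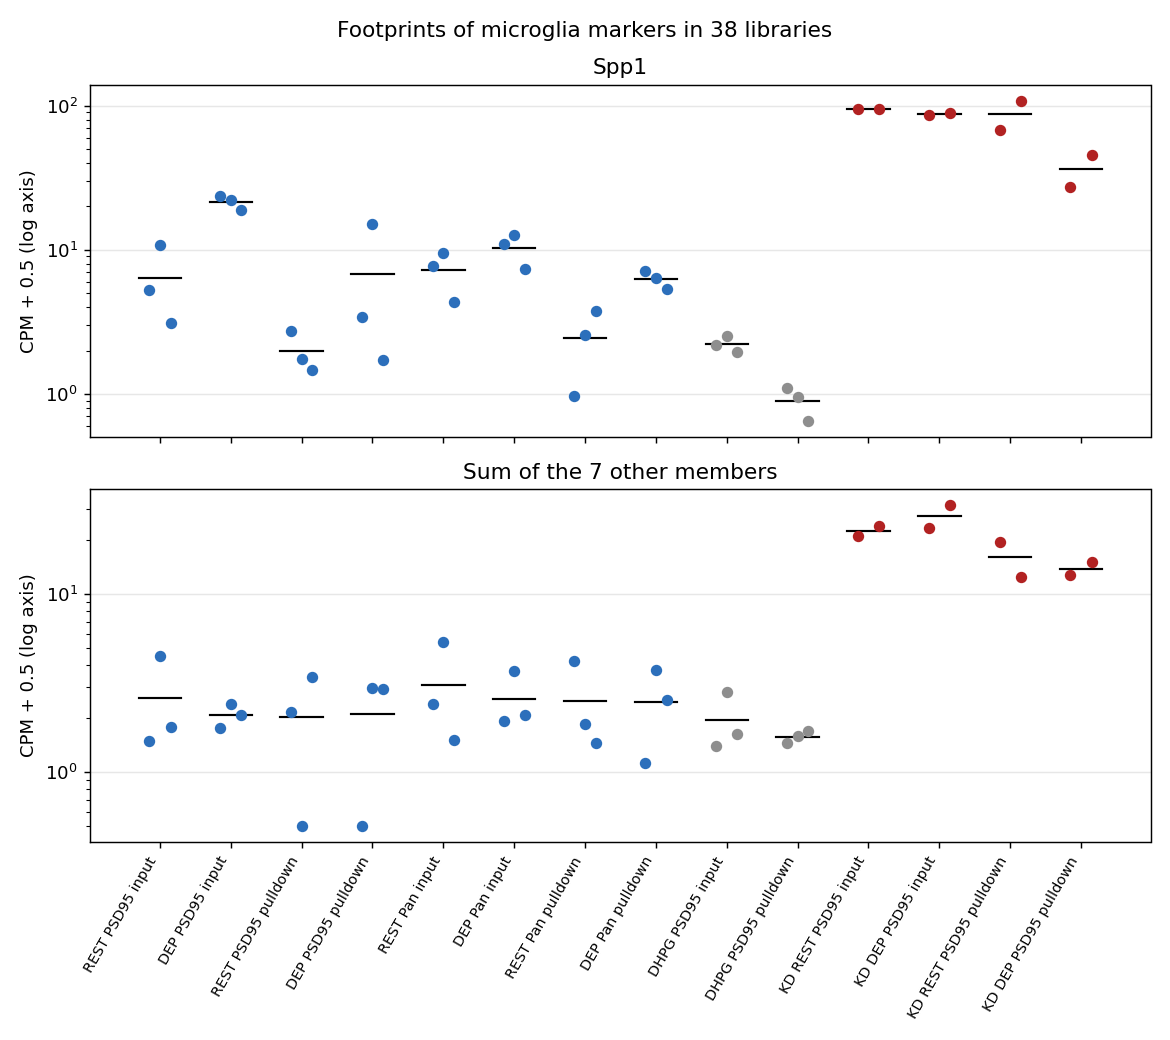
Footprint levels of Spp1 (upper panel) and of the 7 other genes summed (lower panel), as CPM + 0.5 on a log axis, with 1 point per library, bars at group means and the 14 groups along the horizontal axis (REST resting, DEP depolarized by KCl, KD eIF4G2 knockdown; blue KCl experiment, grey DHPG, red knockdown). In the lower panel the 8 knockdown libraries lie between 12 and 31.0 CPM and all others between 0 and 4.84 CPM.

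Per kilobase of CDS, which makes genes comparable, the mean levels in knockdown inputs were 102 CPM per kb for Spp1, 11.5 for C1qa, 9.25 for Tyrobp, 3.37 for C1qb, 3.30 for Ctss, 3.22 for C1qc, 1.08 for Cx3cr1 and 0.899 for Csf1r. The 3 C1q chains, which assemble in equal numbers in the protein, did not have equal footprint levels, with C1qa above the other 2. The Tyrobp value depends on the gene model. The longest of its models has a CDS of 424 bases, which is no multiple of 3, and held 84 counts in knockdown inputs, where another coding model, of 345 bases, held 36.

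C1qa, the chain with the most counts, had 36 and 57 counts in resting and 26 and 33 counts in depolarized knockdown inputs. Its 6 untreated TurboID-PSD95 inputs held 5, 9 and 0 counts at rest and 0, 9 and 4 counts after KCl. All 6 Pan-TurboID inputs held 0 counts. No knockdown input overlapped with an untreated one, and the ratio of mean levels was 9.15-fold at rest and 13.4-fold after KCl. Among libraries without knockdown the highest level was 2.22 CPM, in a depolarized Pan-TurboID pulldown (replicate 2) with 30 counts spread over both coding segments, where the other 2 of its group held 0. The next highest, at 1.91 CPM, was a depolarized TurboID-PSD95 input with 9 counts.

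C1qb had 8 and 17 counts in resting and 8 and 11 counts in depolarized knockdown inputs, and 0 counts in all 6 untreated TurboID-PSD95 inputs. This puts its level at least 12.9-fold higher at rest and at least 16.3-fold higher after KCl. These values take 3 counts over each untreated group as the floor and the knockdown counts as exact. C1qc had 17 and 17 counts in resting knockdown inputs and 15 and 2 counts in depolarized ones. Untreated TurboID-PSD95 inputs held 0, 0 and 3 counts at rest and 0, 0 and 2 after KCl. In CPM these groups did not overlap for either gene, although the lowest knockdown input of C1qc, at 0.872 CPM, was close to the highest untreated TurboID-PSD95 one, at 0.780 CPM. The 3 genes lie beside each other on mouse chromosome 4 (mm10), with CDSs at chr4:136880289-136882307 (C1qb), chr4:136890043-136892562 (C1qc) and chr4:136896154-136897837 (C1qa), all on the minus strand.

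Csf1r, the receptor for CSF1 and IL-34, had 12 and 11 counts in resting and 13 and 9 counts in depolarized knockdown inputs. Untreated TurboID-PSD95 inputs held 3, 2 and 2 counts at rest and 3, 0 and 3 counts after KCl. The levels of these groups did not overlap, with ratios of 4.31-fold and 6.76-fold. Csf1r was nonetheless the most evenly spread over libraries of the 7 low genes, being detected in 23 of the 30 libraries without knockdown, where it summed to 86 counts.

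Cx3cr1 had 11 and 12 counts in resting and 2 and 2 counts in depolarized knockdown inputs. It had 0 counts in all 12 untreated inputs of the KCl experiment. With 3 counts over each untreated TurboID-PSD95 group as the floor, and knockdown counts taken as exact, it was at least 11.8-fold higher at rest. After KCl the same ratio was 3.44-fold, from 4 knockdown counts, and is no firm bound. A count of 0 in 1 depolarized untreated input allows up to 1.28 CPM, above both knockdown inputs at 0.519 and 0.872 CPM. In pulldowns the gene behaved otherwise. The 12 untreated pulldowns of the KCl experiment held 32 Cx3cr1 counts in all, in 6 of the 12 libraries, of which resting Pan-TurboID pulldowns held 6, 6 and 4. Its counts came from a single coding exon.

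Tyrobp had 18 and 44 counts in resting and 13 and 9 counts in depolarized knockdown inputs, against 1, 0 and 0 and 0, 0 and 3 counts in untreated TurboID-PSD95 inputs. Pan-TurboID inputs held 0, 6 and 4 counts of it at rest and 0, 0 and 1 after KCl. The 12 untreated pulldowns of the KCl experiment held 0 counts of it. Ctss had 31 and 27 counts in resting and 12 and 5 counts in depolarized knockdown inputs. Untreated TurboID-PSD95 inputs held 4, 10 and 0 counts of Ctss at rest and 0, 0 and 2 counts after KCl, and Pan-TurboID inputs 8, 10 and 0 and 0, 15 and 3. In CPM neither gene overlapped between knockdown and untreated TurboID-PSD95 inputs, where the ratio for Ctss at rest was 5.57-fold, but Ctss reached 2.20 CPM in a Pan-TurboID input, above the lowest knockdown input at 2.18 CPM. A depolarized TurboID-PSD95 pulldown (replicate 2) also held 15 Ctss counts, but all 15 lay in 1 of the 8 coding segments.

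Spp1 was at 93.4 and 94.1 CPM in resting and at 85.8 and 89.0 CPM in depolarized knockdown inputs, from 204 to 739 counts per library. Untreated TurboID-PSD95 inputs were at 4.76, 10.3 and 2.60 CPM at rest and at 23.0, 21.5 and 18.3 CPM after KCl. The levels did not overlap, and the ratio was 15.9-fold at rest and 4.17-fold after KCl. Its CDS lies at chr5:104436389-104440618 on the plus strand of mm10.

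**Figure D2:**
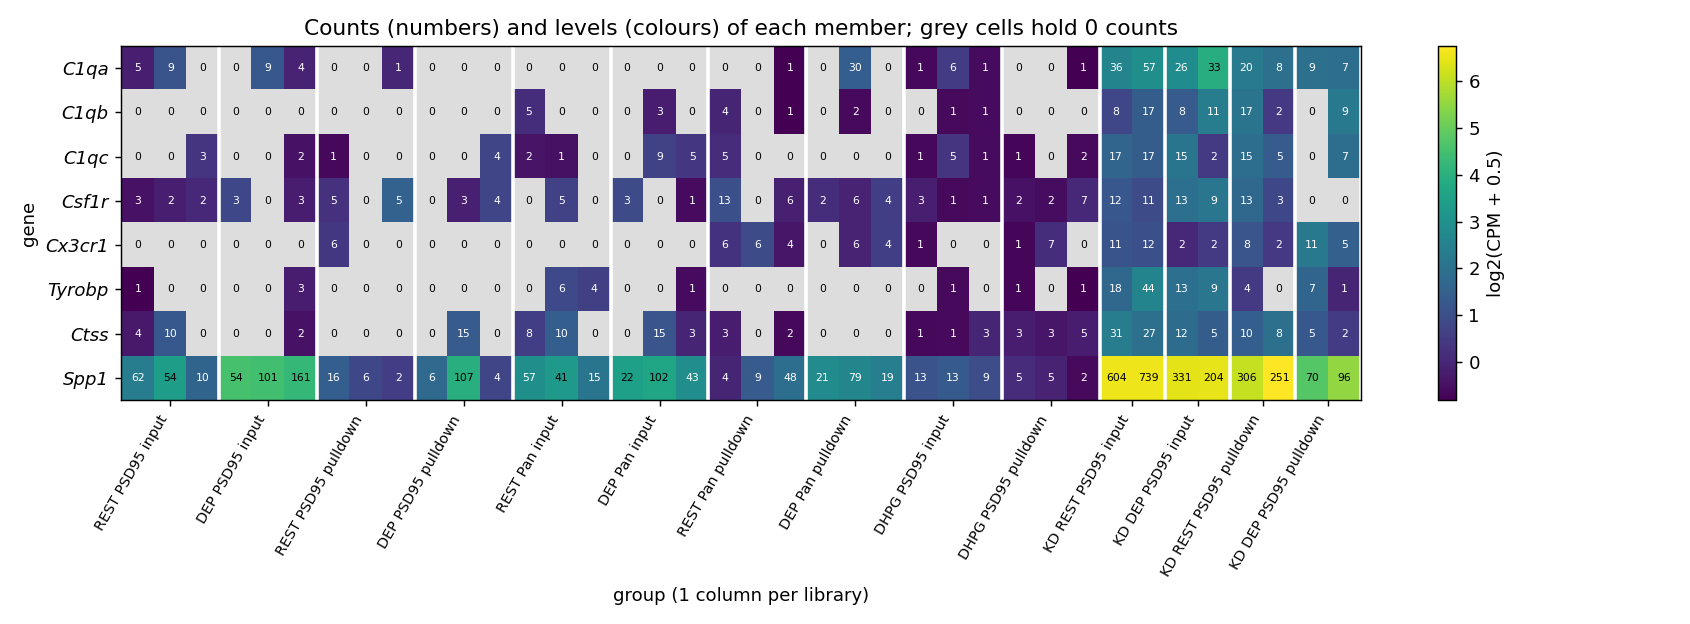
Counts of each of the 8 genes (rows) in each of the 38 libraries (columns, grouped by the labels), printed as numbers over a colour scale of log2(CPM + 0.5), with 0 counts in grey. Grey cells fill most of the upper 7 rows outside the 8 knockdown libraries on the right, while Spp1 has counts in every column.

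Between resting knockdown and untreated TurboID-PSD95 inputs, 8 of 8 genes stood higher without overlap, as did 20.1% of all genes with a count, and between the depolarized ones 8 of 8, with 18.6% of all genes. With both conditions together, every one of the 4 knockdown inputs stood above all 6 untreated ones for 8 of 8 genes, where 5.16% of 16626 genes with a count did so. Against all 15 other inputs, which add the Pan-TurboID and DHPG inputs, 5 of 8 genes (C1qa, C1qb, Cx3cr1, Tyrobp and Spp1) stood above, where 2.02% of all genes did. C1qc, Csf1r and Ctss overlapped with other inputs. Since high levels in these same knockdown inputs chose the genes, nothing is read from any of these counts.

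Pulldowns of the knockdown cultures were not named in the choice of genes, but they come from the same cultures as the inputs that chose them. High levels in these pulldowns are therefore no separate evidence. Nothing is read from the counts of genes without overlap or from the sums given for them. C1qa had 20 and 8 counts in resting and 9 and 7 counts in depolarized knockdown pulldowns, against 1 count in the 6 untreated TurboID-PSD95 pulldowns. Spp1 was at 67.6 and 107 CPM in resting and at 26.7 and 45.1 CPM in depolarized knockdown pulldowns. Untreated TurboID-PSD95 pulldowns were at 2.24, 1.25 and 0.977 CPM at rest and at 2.92, 14.6 and 1.21 CPM after KCl. C1qa, Cx3cr1 and Spp1 did not overlap between the 4 knockdown and the 6 untreated TurboID-PSD95 pulldowns, which is 3 of 8 genes where 4.28% of all genes stood higher in that way. C1qb, C1qc, Csf1r and Tyrobp each had a knockdown pulldown at 0 counts, and Ctss had the untreated pulldown with 15 counts. Against all 15 other pulldowns, C1qa and Spp1 stood higher without overlap, 2 of 8 genes beside 2.0% of all genes.

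Csf1r showed the smallest difference between these pulldowns. Its 16 counts in the knockdown pulldowns (13 and 3 at rest, 0 and 0 after KCl) stood beside 17 counts in the untreated TurboID-PSD95 ones. Summed over the 8 genes, knockdown pulldowns were at 76.1 ± 34.7 CPM (n = 4) and untreated TurboID-PSD95 pulldowns at 5.45 ± 5.78 CPM (n = 6), a log2 ratio of 3.80. Without Spp1 the log2 ratio was 3.19.

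How KCl depolarization moved these footprints was tested within each set with the quasi-likelihood test of edgeR, adjusted by the Benjamini-Hochberg method over all genes tested. The study describes 3 biologically independent replicates for PL-Ribo-seq, while the knockdown groups had 2 libraries and the labels give only a replicate number. P-values measure the spread between libraries labelled as replicates. Every replicate pair of the knockdown set differed less than any pair of the KCl experiment. Pairs of the DHPG set also spanned a lower range, with slight overlap. The labels do not say whether knockdown and DHPG replicates were separate cultures, so their p-values may not measure the spread between cultures. In the KCl experiment, Spp1 was the only 1 of the 8 genes to pass the filter on low counts, since the other 7 had too few. Spp1 was 1.21 ± 0.44 higher (log2, SE) in depolarized than in resting inputs of both baits together, with an adjusted p of 0.063 in edgeR, so that 0 of 1 tested genes passed where 15.3% of all genes did. Its unadjusted p was 0.011.

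By bait, TurboID-PSD95 inputs did not overlap between depolarized (18.3 to 23.0 CPM) and resting (2.60 to 10.3 CPM) libraries. Pan-TurboID inputs overlapped, at 10.4, 12.1 and 6.86 CPM after KCl and 7.21, 9.03 and 3.83 CPM at rest. The KCl response of Spp1 in inputs passed the threshold by the likelihood ratio test of edgeR (adjusted p = 0.040), by DESeq2 (0.029) and with the replicate number as a block (0.025).

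In TurboID-PSD95 pulldowns, Spp1 was 2.07 ± 0.71 higher after KCl on the log2 scale (edgeR adjusted p = 0.078), where 6.58% of genes passed. Most of this difference lay in the depolarized library of replicate 2 at 14.6 CPM, the other 2 being at 2.92 and 1.21 CPM, and without replicate 2 the log2 difference was 0.23. Pan-TurboID pulldowns were at 6.60, 5.85 and 4.83 CPM after KCl and at 0.476, 2.05 and 3.28 CPM at rest, without overlap. There the log2 difference was 1.57 ± 0.66 (edgeR adjusted p = 0.187), and 5.03% of genes passed. The log2 difference of Spp1 thus lay above 0 in all 3 comparisons. In the quasi-likelihood test it passed the threshold in none of them without a block, and in inputs alone with the replicate number as a block.

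Within the knockdown cultures 7 of the 8 genes could be tested, all but Cx3cr1. In knockdown inputs 0 of 7 passed after KCl in edgeR, 0 of 7 had an unadjusted p under 0.05, and 0 passed by the likelihood ratio test or DESeq2, while 19.3% of all genes passed. Spp1 was at 93.4 and 94.1 CPM at rest and 85.8 and 89.0 CPM after KCl, a log2 difference of -0.09 ± 0.19 (edgeR adjusted p = 0.806). The other tested genes had log2 differences between -0.58 (Ctss) and 1.16 (Csf1r), with standard errors of 0.54 to 1.00, so that differences of this size could not be told from 0 at this depth.

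In knockdown pulldowns Spp1 fell after KCl. The depolarized pulldowns at 26.7 and 45.1 CPM stood below the resting ones at 67.6 and 107 CPM, without overlap. The log2 difference was -1.27 ± 0.23 with an adjusted p of 0.00016 in edgeR, and it lay between -1.66 and -0.93 when single libraries were left out. The fullest coding segment of each library held 222 of 306 and 174 of 251 Spp1 counts at rest. After KCl it held 39 of 70 and 52 of 96. Whether the fall was alike in all coding segments was not tested. Csf1r passed as well (edgeR adjusted p = 0.0497), with 13 and 3 counts at rest and 0 and 0 counts after KCl. This is at least 3.68-fold lower by a floor of 3 counts over the depolarized pulldowns, with the resting counts taken as exact. Csf1r was at 3.37 and 3.93 CPM in depolarized knockdown inputs and at most at 2.87 CPM in the other knockdown libraries. It met the low-count filter only through those inputs, whose high levels chose the genes, so nothing is read from its call. That call was lost under 11 of its alternatives, among them the omission of any 1 library. The 2 of 7 genes that passed stand beside 22.2% of all genes. For C1qa, C1qb, C1qc, Ctss and Tyrobp the counts were too low to place the difference, with standard errors of 0.67 to 1.24.

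The other lists are given by how many of their genes passed in edgeR in the same comparison, in which 10.2% of all genes rose and 12% fell. Of 9 tested genes of 30 other microglia genes, 1 fell in knockdown pulldowns, Coro1a, a regulator of actin in leukocytes that neurons also express. Lyz2, the macrophage lysozyme and the only testable gene of 11 of other macrophages, fell by 3.19 ± 0.61 on the log2 scale (edgeR adjusted p = 0.00035). Among 12 tested ligands and partners of the members, 4 fell and 2 rose. Cst3, which encodes the cathepsin inhibitor cystatin C, fell by 1.77 ± 0.10 (edgeR adjusted p = 1.03e-12), and Cd47, a signal that restrains phagocytosis, fell by 0.96 ± 0.12 (edgeR adjusted p = 2.21e-06). The receptors of osteopontin Cd44 and Itgav rose, by 1.00 ± 0.31 (edgeR adjusted p = 0.022) and 0.77 ± 0.17 (edgeR adjusted p = 0.0015). Among 10 tested genes of activated phagocytes only Ctsb, cathepsin B, fell, by 0.89 ± 0.10.

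Lists of other cells are given beside the same shares of all genes, 10.2% higher and 12% lower. Of 9 tested astrocyte genes 4 rose (Aldh1l1, Gja1, Sox9 and Aldoc) and 1 fell (Gfap), with a median log2 difference of 0.57 where that of all genes was 0.00. Of 10 genes of dividing cells 2 rose (Top2a and Cdk1) and 0 fell. Interferon response genes had 2 of 4 higher (among them Ddx58) and 0 lower, and genes of mural cells and fibroblasts 1 of 6 higher (Acta2) and 0 lower. Oligodendrocyte lineage genes had 1 of 9 higher (Cnp) and 2 lower (Olig1 and Olig2), and neuronal genes 2 of 14 higher (Gad1 and Gad2) and 2 lower (Tubb3 and Elavl3). Neither of the 2 tested endothelial genes passed. Their part in the Spp1 difference was not tested.

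The difference between the KCl responses with and without knockdown was itself tested across the 20 TurboID-PSD95 libraries. For inputs the Spp1 response was lower in the knockdown cultures with a log2 difference of -1.90 ± 0.75 (adjusted p = 1.00 in edgeR). It did not pass by the likelihood ratio test or DESeq2 either, and 0.00759% of all genes passed in edgeR. High levels in these same knockdown inputs chose the genes, so nothing is read from this difference for inputs. The other 6 genes in this fit met the low-count filter only through the knockdown libraries and are not read here. For pulldowns, a comparison added after the values had been seen, the log2 difference was -3.36 ± 0.87 (adjusted p = 0.123 in edgeR). Spp1 passed there by the likelihood ratio test but not by DESeq2, and 0.448% of all genes passed in edgeR. Without replicate 2 the log2 difference for pulldowns was -1.46, and without replicate 3 it was -3.71 (adjusted p = 0.027 in edgeR).

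**Figure D3:**
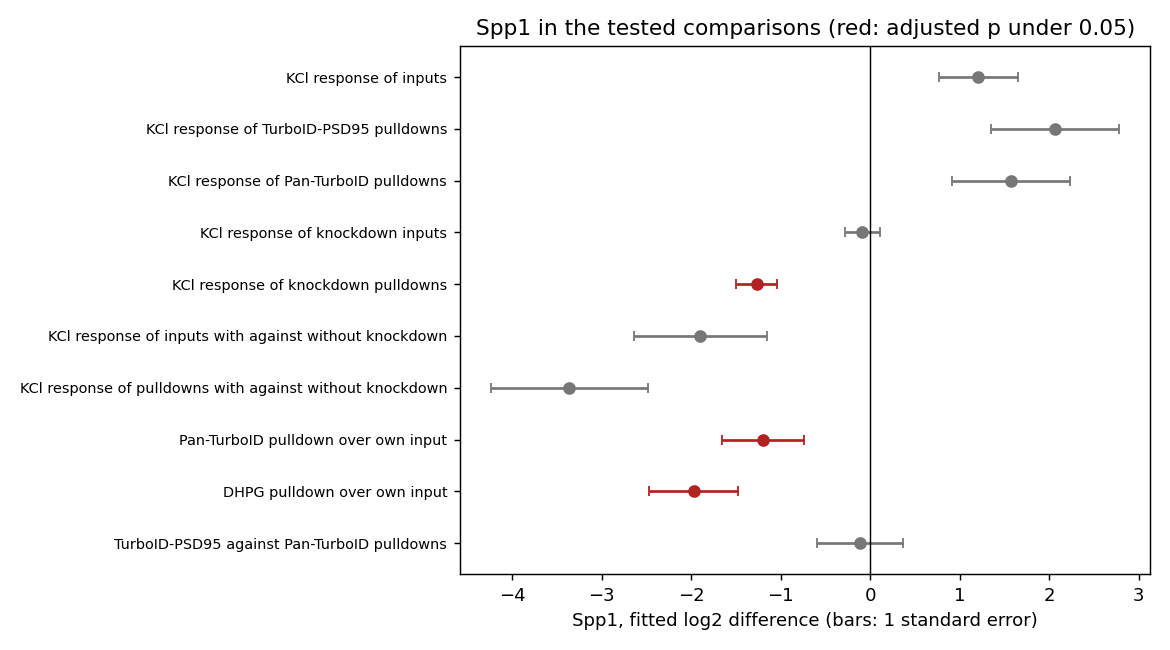
Fitted log2 difference of Spp1 in each tested comparison, with bars of 1 standard error, in red where the edgeR adjusted p was under 0.05. The 3 KCl responses without knockdown lie above 0 and do not pass in these fits, which have no replicate block, while the KCl response of knockdown pulldowns at -1.27 and the pulldown over input differences at -1.20 and -1.97 lie below 0 and pass.

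Pulldowns hold the ribosomes that were close to the ligase, so levels in pulldowns were compared with those in the inputs of the same cultures. In the KCl experiment Spp1 was lower in Pan-TurboID pulldowns than in their inputs. The inputs lay between 3.83 and 12.1 CPM and the pulldowns between 0.476 and 6.60 CPM, with overlap. The log2 difference was -1.20 ± 0.45 (edgeR adjusted p = 0.043), where 34.1% of all genes passed and 17.3% in this direction. In edgeR it no longer passed without replicate 1 (-0.96, adjusted p = 0.170) or without replicate 2 (-0.97, adjusted p = 0.210).

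For TurboID-PSD95 this comparison was described and not tested. Spp1 was lower in the pulldown than in the input of its own culture in 6 of 6 cultures, as were 19.2% of all genes. At rest the pulldowns lay between 0.977 and 2.24 CPM and the inputs between 2.60 and 10.3 CPM, and after KCl between 1.21 and 14.6 CPM and between 18.3 and 23.0 CPM. Within each condition Spp1 was the 1 of 8 genes lower without overlap, beside 22.9% of all genes at rest and 11.5% after KCl, a comparison added after the values had been seen. With both conditions pooled, the groups overlapped. Over the pooled conditions 0 of the 8 genes were without overlap, where 3.01% of all genes stood lower and 3.09% higher in that way. C1qa had 27 counts in the 6 inputs and 1 count in the 6 pulldowns, whereas Csf1r had 13 and 17. The log2 ratio of the summed 8 genes was -1.49, and that of the 7 genes without Spp1 was -0.22.

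No difference of Spp1 between the baits was detected in pulldowns, where it had a log2 difference of -0.11 ± 0.48 for TurboID-PSD95 against Pan-TurboID (edgeR adjusted p = 1.00, 2 of 13003 genes or 0.0154% passing, 396 at an unadjusted p under 0.05). In inputs the sum was 15.3 ± 8.82 CPM for TurboID-PSD95 and 10.6 ± 3.85 CPM for Pan-TurboID (n = 6 each). Without Spp1 the direction turned, with 1.85 CPM for TurboID-PSD95 and 2.33 CPM for Pan-TurboID. Single genes were uneven between the 2 sets of inputs. C1qa had 27 counts in TurboID-PSD95 inputs and 0 in Pan-TurboID inputs, while C1qb had 0 and 8 and Tyrobp 4 and 11. Of the 8 genes 0 were without overlap between the baits, as were nearly all genes, with 0.0537% higher and 0.0239% lower in that way.

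In the knockdown cultures, the 8 genes summed to 76.1 ± 34.7 CPM in pulldowns and 115 ± 4.81 CPM in inputs (n = 4 each), a log2 ratio of -0.60. By condition, the pulldown and input sums were 103 and 116 CPM at rest, with overlap. After KCl they were 49.3 and 114 CPM, without overlap (n = 2 each). With both conditions pooled, single genes were as follows. C1qa was at 3.29 to 4.42 CPM in pulldowns and at 5.57 to 14.4 CPM in inputs, and Tyrobp at 0 to 2.67 CPM and 2.78 to 5.60 CPM. These were the 2 of 8 genes that did not overlap, both being lower in pulldowns, as 20.2% of all genes were. Cx3cr1 had 26 counts in pulldowns and 27 in inputs, at mean levels of 2.29 and 1.15 CPM.

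After DHPG, Spp1 was at 1.69, 2.02 and 1.46 CPM in inputs and at 0.595, 0.457 and 0.149 CPM in pulldowns. All 3 pulldowns stood below all 3 inputs. The log2 difference was -1.97 ± 0.49 with an adjusted p of 0.0014 in edgeR, where 79.7% of all genes passed and 39.3% in this direction. DHPG inputs also stood below every other input for Spp1, the nearest being at 2.60 CPM. This held for 1 of the 8 genes and for 3.75% of all genes.

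Set against resting TurboID-PSD95 inputs, DHPG inputs had a summed level of 3.18 ± 1.01 CPM, beside 8.0 ± 5.56 CPM (n = 3 each). Spp1 was the 1 gene of 8 without overlap, where 25.6% of all genes were lower in that way. The 7 other genes summed to 0.909, 2.33 and 1.13 CPM in DHPG inputs and to 0.999, 4.01 and 1.30 CPM in resting ones, with overlap. In DHPG inputs astrocyte markers summed to 248 to 264 CPM, against 691 to 1429 CPM in the 12 untreated inputs of the KCl experiment. Those of dividing cells were at 107 to 110 CPM against 149 to 374 CPM. Oligodendrocyte lineage genes were at 66.9 to 72.9 CPM against 183 to 660 CPM. Mural and fibroblast genes were at 71.3 to 75.9 CPM against 152 to 730 CPM. The endothelial and neuronal sums overlapped. The part of these cells in the Spp1 difference was not tested.

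Where footprints fell within the genes was examined because low counts can come from a single stretch. In knockdown inputs Spp1 counts lay in all 6 coding exons, with 44, 2, 64, 22, 764 and 982 counts from the first to the last, the last 2 being the longest. In knockdown pulldowns the same exons held 13, 0, 3, 20, 479 and 208 Spp1 counts. Csf1r counts lay in 16 of 21 coding segments in knockdown inputs, and Ctss counts in 7 of 8. In knockdown pulldowns they lay in 5 of 21 and 4 of 8. Both segments of each C1q gene held counts in knockdown inputs, but all 28 C1qb counts of knockdown pulldowns lay in 1 of its 2 segments. Of 48 Csf1r counts in untreated pulldowns of the KCl experiment, 16 lay in 1 segment that held 0 in every other set. Tyrobp was uneven, with 75 of 84 counts in the first of 5 segments, the one that the shorter model does not share in full.

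Untranslated regions (UTRs) were compared with the CDS of the same transcripts. Spp1 had 51 counts in its 5′ UTR beside 1878 in its CDS in knockdown inputs, which is 2.72%, and 0 beside 723 in knockdown pulldowns. Over all genes the 5′ UTR counts came to between 18.3% and 27.2% of the CDS counts in knockdown inputs and between 5.80% and 7.11% in knockdown pulldowns, so Spp1 lay below the whole in both. In the untreated inputs of the KCl experiment it had 11 beside 722. C1qc and Ctss had the highest shares in knockdown inputs, 14 beside 51 counts and 22 beside 75. Counts in 3′ UTRs were at most 3 for any of the 8 genes in any set of libraries. Each of the 8 genes thus had more counts in its CDS than in its UTRs in the knockdown inputs. The Tyrobp model used has a 5′ UTR of length 0, so it could hold no 5′ UTR count, and it had 3 counts in its 3′ UTR there. The Tyrobp model with a CDS of 345 bases held 36 of the 84 CDS counts.

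Whether other marker genes of microglia moved in the same way was looked at in the 4 knockdown and 6 untreated TurboID-PSD95 inputs. Of 27 other microglia genes with a count, 7 stood higher without overlap (among them Fcrls, Itgam, Fcgr3, Cd53, Sall1 and Olfml3) and 0 lower, where 5.16% of all genes were higher and 5.76% lower. Their median log2 ratio was 0.39, against 2.37 for the 8 genes and -0.04 for all genes. Among those with the highest levels were Coro1a, at 182 to 318 CPM and 177 to 313 CPM, Lgmn, at 99.0 to 123 CPM and 115 to 165 CPM, and Sall1, at 21.0 to 37.5 CPM and 5.54 to 17.6 CPM. Coro1a and Lgmn overlapped and are also expressed by neurons, and Sall1 is also expressed by neural progenitors.

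Several of the other microglia genes were near or at 0 in the knockdown inputs. They were picked for low values after these were seen, from the list of which 7 genes stood higher, Fcrls, Sall1 and Olfml3 among them. P2ry12 had 2 counts, Tmem119 3 counts and Aif1 7 counts over the 4 knockdown inputs, and P2ry13, Gpr34, Siglech, Cd33, Cd84 and Csf3r had 0. Mean levels in the 4 knockdown and the 12 untreated inputs were 0.0773 and 0.234 CPM for P2ry12, 0.283 and 0.115 CPM for Tmem119 and 0.335 and 1.34 CPM for Aif1. Trem2, the receptor that signals through Tyrobp, was at means of 1.26 and 0.141 CPM, with 0 counts in at least 1 knockdown input. The ranges of all 4 genes overlapped between these inputs. The list as a whole summed to 392 to 539 CPM in knockdown inputs and 278 to 528 CPM in untreated ones, as it is dominated by Coro1a and Lgmn.

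The shares of all genes without overlap, 5.16% higher and 5.76% lower, also stand beside the counts of the other lists. Of 7 other macrophage genes with a count, 1 was higher, Lyz2, at 7.85 to 13 CPM in knockdown inputs and 0 to 3.06 CPM in untreated TurboID-PSD95 inputs. The next of that list by level, H2-Aa, Cd74 and Mrc1, overlapped. Of 18 genes of activated phagocytes, 3 were higher (Itgax, Gpnmb and Cd9) and 1 lower (Cxcl10). The most abundant, Ctsd, Apoe, Ctsb and Lpl, overlapped between the groups. Interferon response genes had 0 of 19 without overlap in either direction, and their sum was 36.7 to 48.0 CPM in knockdown inputs and 7.87 to 45.0 CPM in the 12 untreated inputs.

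Ligands and partners of the members had 2 of 20 higher and 2 lower, beside 5.16% and 5.76% of all genes. Higher were Cd44 and Itgav, receptor subunits that bind osteopontin, at 21.0 to 30.9 CPM and 74.6 to 102 CPM, against 8.58 to 17.4 CPM and 20.0 to 72.1 CPM. Lower were Cx3cl1, the ligand of Cx3cr1, at 227 to 276 CPM against 313 to 446 CPM, and Cd47, at 150 to 226 CPM against 466 to 673 CPM. Cst3 and Cd200 overlapped.

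Markers of other cells were counted in the same inputs, again beside 5.16% of all genes higher and 5.76% lower. Dividing cells had 3 of 10 genes higher (Top2a, Cdk1 and Mcm2) and 0 lower, and their sum was 371 to 516 CPM in knockdown inputs and 149 to 374 CPM in the 12 untreated inputs. Oligodendrocyte lineage genes had 2 of 9 higher (among them Mag) and 1 lower (Pdgfra), and astrocyte genes 1 of 10 higher (Gja1) and 1 lower (Slc1a2). None of 9 endothelial and none of 10 mural or fibroblast genes was without overlap, though the endothelial sum, mostly Kdr, was 68.6 to 101 CPM in knockdown inputs and 5.54 to 68.0 CPM in untreated ones. Neuronal genes had 2 of 14 higher (Slc17a6 and Dcx) and 7 lower (Snap25, Syt1, Slc17a7, Gad1, Gad2, Nefl and Nefm), with a median log2 ratio of -0.53. The part of each of these in the levels of the 8 genes was not tested.

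**Figure D4:**
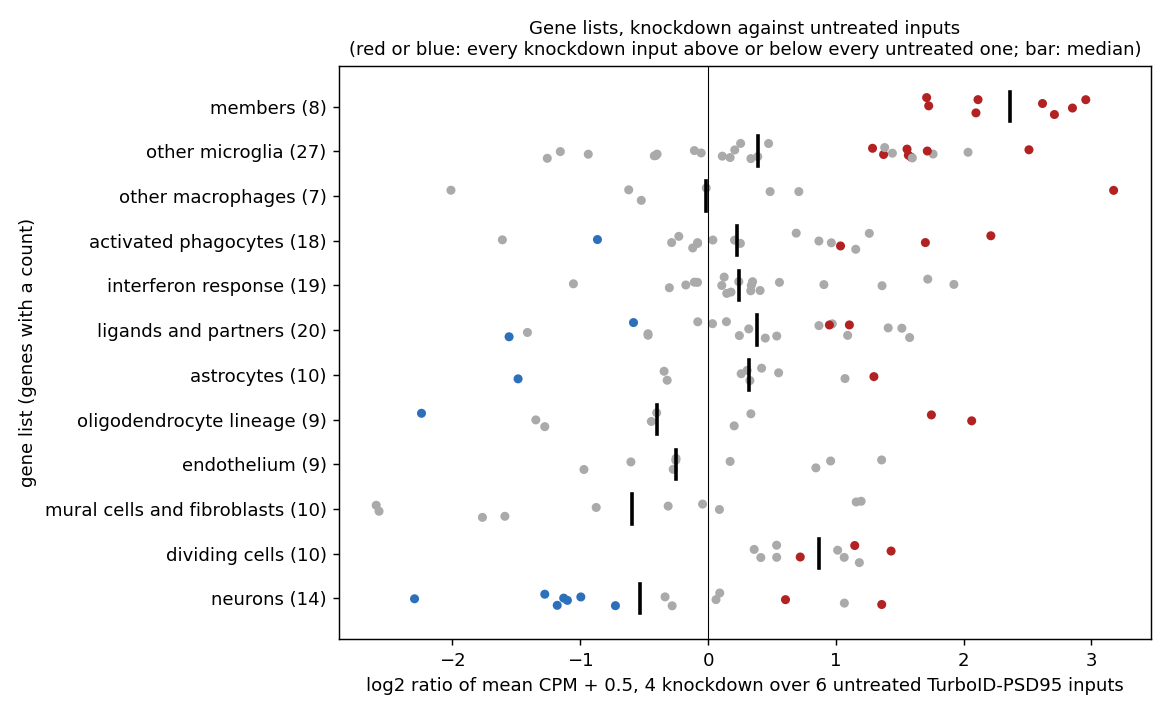
Log2 ratio of mean CPM + 0.5 between the 4 knockdown and the 6 untreated TurboID-PSD95 inputs for each gene of each list with a count, with the list median as a bar, and in red or blue where every knockdown input stood above or below every untreated one. The 8 genes have a median of 2.37, other microglia genes of 0.39, dividing cell genes of 0.87 and neuronal genes of -0.53.

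The genes whose levels across the 38 libraries were most like the summed level of the 8 genes were found by Pearson correlation of log2(CPM + 0.5) among 13660 genes. They were Fbln5 (r = 0.83), Pdpn (0.82), Sparc (0.81), Pcna (0.80), Prc1, Plcd4, Id4 and Gpnmb (each 0.78), Jam3 and Sncaip (each 0.77). These libraries share cultures, depth and experiment, so the values describe a likeness and no more. Fbln5, an extracellular matrix protein, was at means of 79.9 and 114 CPM in resting and depolarized knockdown inputs and at 21.0 and 25 CPM in the untreated TurboID-PSD95 inputs. Taken against the 7 genes without Spp1, the most alike were Ezh2 (0.84), Lyz2 (0.80), Angpt1, Vnn1, Mpeg1, Sfrp1, Folr1, Trf, Cnmd and Sncaip. Sncaip was in both sets of 10, and Lyz2 and Mpeg1 are genes of macrophages.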

How the data were processed

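The 38 libraries were ribosome footprints of cultured mouse cortical neurons, grouped by the labels. The authors removed UMIs and aligned reads to mm10 with Rsubread, per the methods. Per the file headers, they used alignments marked as free of rRNA and of duplicates and counted 5′ ends per transcript region of UCSC knownGene with plastid, and the deposited values are raw counts, not normalized. Of 67238 coding transcripts, 66750 (99.3%) matched a gene symbol, and the longest transcript of each gene was kept, as in the study's methods. CPM is scaled to the summed CDS counts. Groups were tested with edgeR 4.0.16 (quasi-likelihood, robust, TMM, filterByExpr, Benjamini-Hochberg threshold 0.05; R 4.3.3), separately for the KCl, DHPG and knockdown sets and for the interaction with knockdown, after checks on simulated data. Comparisons across sets were described by overlap of libraries. Alternatives were RLE or CDS-total scaling, no filter, another transcript, the likelihood ratio test, DESeq2 1.42.0, a block and left-out libraries. The 8 genes, the gene lists and the tests were chosen with earlier results of these data known. Genes of other lists were named by level or, where tested, by size among those that passed, at most 4 a list, and some genes of these lists are not reported here. Depth per library, 2.05 to 14.6 times 1000000 CDS counts, gives counting error only. Same-numbered pulldowns and inputs of the KCl experiment, which the methods take from the same culture, deviated from their group means together (r = 0.16 to 0.49 over 12 pairs). Same-numbered inputs of the 2 baits within a condition, from different cultures, also did (r = 0.20 to 0.51 at rest, 0.15 to 0.29 after KCl). The test of inputs of both baits together takes such inputs as independent. Resting and depolarized samples of a number, which the methods process together, did not (r = -0.17 to 0.18 over 12 pairs).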

Additional observations from a re-analysis of the deposited data

How the results depend on the processing

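Of 108 alternatives for the number of the 8 genes past the threshold in 10 tested comparisons, 86 left it as it was and 22 moved it. In the KCl response of inputs it went from 0 to 1 (Spp1) with the likelihood ratio test, DESeq2 and the replicate block, and in TurboID-PSD95 pulldowns from 0 to 1 with the likelihood ratio test and DESeq2. In Pan-TurboID pulldowns over their inputs it went from 1 to 3 with no filter on low counts, which added Ctss and Cx3cr1. There 4061 of 17403 genes passed. It lay between 0 and 1 when a replicate was left out, being 0 without replicate 1 or 2. In DHPG pulldowns over inputs it went from 1 to 2 with no filter, which added C1qa, where 10133 of 16673 genes passed. In knockdown pulldowns it went from 2 to 1 with RLE, no filter, the replicate block and each left-out library, Csf1r being lost. In the interaction in pulldowns it went from 0 to 1 with the likelihood ratio test and lay between 0 and 1 when a replicate was left out. The replicate block, or the culture as a block for pulldowns over inputs, changed no other count among the 8 comparisons it was run for, and it was not run for the interactions. Leaving out a replicate number in the knockdown set alone could not be fitted, since no residual degrees of freedom remained, and each of its 8 libraries was left out instead, a choice made after seeing the data, as were the interaction in pulldowns and another transcript of Tyrobp.

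Of 62 alternatives for 7 summed ratios, 58 moved by less than the spread between libraries. Without Spp1, the log2 ratio of depolarized knockdown over untreated inputs was 4.08 in place of 2.34, that of DHPG over resting inputs -0.53 in place of -1.33, that of TurboID-PSD95 pulldowns over inputs -0.22 in place of -1.49, and that of TurboID-PSD95 over Pan-TurboID inputs turned from 0.53 to -0.33. The cause was not tested beyond the share of Spp1 in the sum.

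Counts over all genes past the threshold moved by over 1.5 times in several fits. KCl inputs had 1995, and 887 or 515 without replicate 2 or 3. TurboID-PSD95 pulldowns had 855, and 1446, 109 or 92 without replicate 1, 2 or 3 and 1319 with DESeq2. Pan-TurboID pulldowns had 654, and 166 or 74 without replicate 2 or 3, 1049 with DESeq2 and 982 with the replicate block. Pan-TurboID pulldowns over inputs had 4440, and 2402 or 1277 without replicate 2 or 3. Knockdown inputs had 2353, and 1178 to 1356 without 1 of the inputs. The interaction in pulldowns had 59, and 150 with the likelihood ratio test, 139 with DESeq2, 118 with no filter, and 15 or 0 without replicate 1 or 2. The bait comparison of pulldowns had 2, and 6 with no filter, 11 with the likelihood ratio test, 9 with DESeq2, 4 with the replicate block and 0 or 1 without replicate 2 or 3. The interaction in inputs had 1, and 3 with no filter and 0, 0 and 2 without replicate 1, 2 and 3. With 2 to 57 counts per knockdown input, and mostly 0 to 15 elsewhere, the genes other than Spp1 carry large counting errors.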

Other observations

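Cx3cr1 was the 1 gene of the 8 with counts in pulldowns and none in inputs of the KCl experiment, 32 counts in 12 pulldowns and 0 in 12 inputs, with no pulldown above 1.37 CPM. Tyrobp had the opposite, 0 counts in the 12 pulldowns and 15 in the 12 inputs. Both values were picked out after they were seen. Neither gene met the low-count filter. Without the filter, Cx3cr1 passed for Pan-TurboID pulldowns over their inputs (edgeR adjusted p = 0.021), and Tyrobp did not. In that fit 4061 of 17403 genes passed in either direction.

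In DHPG pulldowns over their inputs, 1 of 7 tested other microglia genes rose and 2 fell in the edgeR fit, where 79.7% of all genes passed and 39.3% were lower. Lgmn, the lysosomal protease legumain, and Coro1a fell on the log2 scale, by 0.60 ± 0.09 (edgeR adjusted p = 4.33e-06) and 0.52 ± 0.06 (edgeR adjusted p = 3.69e-07).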
